A study of Mus musculus with 2 samples.

Results

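Neutrophils were found as a small group of low-gene barcodes in single-cell RNA sequencing of J558 allografts, 71 of 11123 barcodes in all. They were chosen by their marker genes: over 500 genes, under 15% mitochondrial UMIs, at least 20 UMIs of S100a8 and S100a9 together, at least 2 UMIs of Csf3r, Cxcr2, Retnlg and G0s2 together, under 5 UMIs of C1qa, C1qb and C1qc, at most 1 UMI of Cd3d, Cd3e and Cd3g, and under 3 UMIs of Trap1a. A UMI (unique molecular identifier) is a tag that counts 1 captured transcript. The vehicle library held 26 of them among 4565 barcodes and the TAK-931 library 45 among 6558.

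J558 is a mouse plasmacytoma line, grown here subcutaneously in female BALB/c mice with a full immune system, and TAK-931 inhibits CDC7, a kinase that starts DNA replication. Mice received by mouth either 0.5% methylcellulose (vehicle) or 60 mg/kg of TAK-931 once daily, and tumours were taken on day 6. Each treatment is represented by 1 allograft and 1 droplet 3′ library, picked as representative by the study. Spread between animals could not be measured, so no test was made, and all intervals are 95% intervals that cover counting error only. Tumours were dissociated with enzymes and red cells were lysed, and the methods name no sorting step for these libraries.

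The vehicle library held 144767193 UMIs and the TAK-931 library 77369283, and 8 barcodes occurred in both libraries, 0 of them among the neutrophils. At least 3 UMIs of the J558 marker Trap1a were found in 3209 vehicle but only 104 TAK-931 barcodes that passed those gene and mitochondrial limits, leaving out barcodes with C1q or Cd3 genes. In the neutrophils, markers of J558 and T cells stood at a median of 3.40% (9 markers, vehicle) and 2.94% (17 markers, TAK-931) of their level over the whole library, a measure of free RNA.

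Neutrophils are short-lived granulocytes that leave the marrow under the growth factor G-CSF (receptor Csf3r) and follow CXCR2 ligands such as Cxcl1 and Cxcl2 into tissue. They carry little RNA and make their granule proteins early: primary granule genes in promyelocytes, secondary granule genes in myelocytes, and gelatinase and chemokine genes when mature. Their S100a8 and S100a9 proteins form calprotectin, which binds zinc and calcium. Interferons and tumour signals are known to change their transcription, and in tumours they are described both as suppressive and as inflammatory cells.

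Of the genes that chose these barcodes, S100a8 and S100a9 were abundant in both libraries and the 4 of the second limit uneven. Most other neutrophil markers were present. S100a8 and S100a9 together were 6.06% of the neutrophils' UMIs in the vehicle and 5.80% under TAK-931. They ran from 20 UMIs through a median of 116.5 to 268 per member in the vehicle, and from 23 through 131 to 789 under TAK-931. The 4 genes of the second limit together had medians of 9 and 12 UMIs per member, and among them G0s2 stood at 1783 and 2742 CPM and Csf3r at 1549 and 1237 CPM. Retnlg had no UMI in most members of either library, and at most 8 and 29 UMIs in a member. The limit on S100a8 and S100a9 lay in a sparse range in the vehicle, where the nearest barcode failing only that limit had 10 UMIs. In the TAK-931 library the nearest such barcode had 19 UMIs and the lowest member 23, and 163 barcodes failed that limit alone against 22 in the vehicle. Of barcodes failing only the gene limit, 7 were in the vehicle and 2 under TAK-931, the nearest with 498 and 345 genes, against 522 and 569 for the lowest members.

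Of 21 neutrophil markers that the limits did not use, 17 had a UMI in vehicle and 20 in TAK-931 neutrophils. Their summed level was 17017 CPM (UMIs of a gene per 1000000 UMIs of the class) in vehicle and 23557 in TAK-931 neutrophils. In the C1q-low monocytes (under 5 C1q UMIs, at least 5 of Lyz2 and 1 of Csf1r, not called neutrophils) the same markers summed to 1858 and 2008 CPM. Of the primary granule genes, Mpo, Elane, Ctsg and Ms4a3 had no UMI in either library and Prtn3 had 2, under TAK-931. Secondary granule genes were mixed: Camp had no UMI, Ltf had 1 and Ngp 3, all under TAK-931, while Chil3 had 2 and 11 UMIs, Mmp8 11 and 35, and Lcn2 38 and 79. Ly6g, the usual surface marker in flow cytometry, had only 1 and 6 UMIs. The neutrophil label held by these markers.

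Genes of most other lineages were scarce, partly because the limits capped C1q, Cd3 and Trap1a UMIs, which belong to the macrophage, T cell and J558 markers. All 7 natural killer markers, all 5 of mast cells and basophils and all 4 erythroid markers were at 0 in the vehicle neutrophils. In the TAK-931 neutrophils the last 2 lists were also at 0, while natural killer genes had 53 UMIs, 96.2% of them in 1 member. Eosinophil markers had 2 UMIs in the vehicle and 0 under TAK-931. The 14 monocyte and macrophage markers summed to 2773 CPM in the vehicle, 85.7% of it in 1 member, and to 1921 CPM in the TAK-931 neutrophils, 33.9% of it in 1 member. Over these 14 markers, 3 or more UMIs were found in 4 of 26 vehicle and 19 of 45 TAK-931 members, not at equal depth. Over 7 monocyte genes of that list, 1 vehicle member and 3 TAK-931 members had 3 or more UMIs. The deepest member of each library (10723 and 13836 UMIs) had 42 and 44 such UMIs, and the vehicle one also had 81 UMIs of Cd74, an antigen presentation gene. Results that turn on such barcodes are given with and without them. The 11 dendritic cell markers summed to 3583 CPM in the vehicle, 98.0% of it in 1 member, and to 2514 CPM under TAK-931. They had 3 or more UMIs in 1 vehicle and 16 TAK-931 members. T cell markers had 3 and 7 UMIs in all. Endothelial markers had 3 and 4 UMIs and those of fibroblasts and mural cells 4 and 14. J558 markers summed to 2413 CPM in vehicle and 879 CPM in TAK-931 neutrophils, with 3 or more UMIs in 17 and 15 members.

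Neutrophils had the fewest genes of any class, and the limit of over 2000 genes in the study's methods removed nearly all of them. They had a median of 678.5 genes and 1687 UMIs in the vehicle and 771 genes and 2610 UMIs under TAK-931. C1q-low monocytes had medians of 2244 and 2894 genes, and C1q-rich macrophage barcodes 2822.5 and 3216. Over 2000 genes were found in 1 of 26 vehicle neutrophils (3.85%) and in 4 of 45 TAK-931 neutrophils (8.89%). The same limit kept 72.4% and 93.4% of the C1q-low monocytes, 73.0% and 84.2% of the C1q-rich barcodes and 37.1% and 66.6% of the T barcodes. The 5 neutrophils above it included both of the deepest members, with their monocyte genes. Above 1000 genes were 3 vehicle and 5 TAK-931 neutrophils, which held 31.7% and 30.2% of the neutrophils' UMIs. Mitochondrial UMIs had a median of 2.63% in vehicle and 7.21% in TAK-931 neutrophils, whereas C1q-low monocytes had 4.21% and 4.65%.

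**Figure D1:**
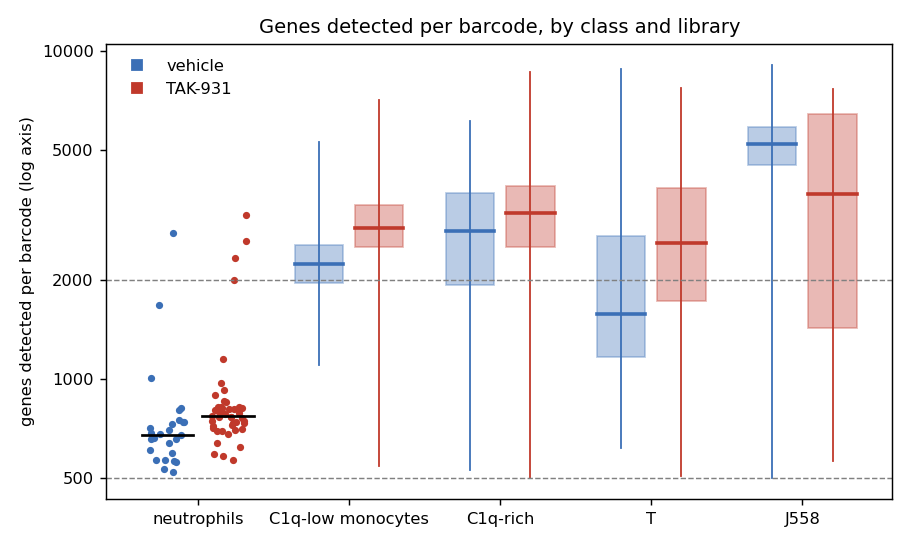
Genes detected per barcode (log axis) by class and library. Points are single neutrophils with their median as a black line, boxes of the other classes span the quartiles with the median as a thick line and the lowest to the highest barcode as a thin line, and dashed lines mark 500 and 2000 genes; the neutrophil medians of 678.5 and 771 genes lie well under 2000.

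The neutrophil share of all barcodes did not differ beyond counting error, but neutrophils were a much smaller part of the immune barcodes under TAK-931. They were 26 of 4163 vehicle barcodes within the gene and mitochondrial limits (0.625%, interval 0.408 to 0.914 by the exact Clopper-Pearson method) and 45 of 4635 with TAK-931 (0.971%, 0.709 to 1.30). The difference was 0.346 percentage points with a Newcombe interval of -0.032 to 0.727, which includes 0. Of the immune barcodes (no Trap1a call and a Ptprc UMI or the rule of a leukocyte class) they were 26 of 486 in the vehicle (5.35%, 3.52 to 7.74) and 45 of 4077 under TAK-931 (1.10%, 0.806 to 1.47). That difference was -4.25 points (-6.64 to -2.53), and the intervals of the libraries did not overlap. Of neutrophils, C1q-rich and C1q-low barcodes together, neutrophils were 8.52% (5.64 to 12.2) and 1.92% (1.41 to 2.57), a difference of -6.60 points (-10.3 to -3.88).

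Counted against single classes, there were 24.8 neutrophils per 100 C1q-low monocytes in the vehicle and 6.36 under TAK-931. Per 100 C1q-rich barcodes the values were 14.9 and 2.84, and per 100 T barcodes 41.9 and 4.23, whereas per 100 J558 barcodes they were 0.81 and 43.3. The monocyte, C1q-rich and T classes held 105, 174 and 62 vehicle barcodes against 707, 1587 and 1063 TAK-931 barcodes. With the limit of over 2000 genes the neutrophil share of immune barcodes was 0.353% from 1 barcode and 0.127% from 4. A share of captured barcodes is not a count per tumour, and the number of cells loaded was not given in the sources used here.

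**Figure D2:**
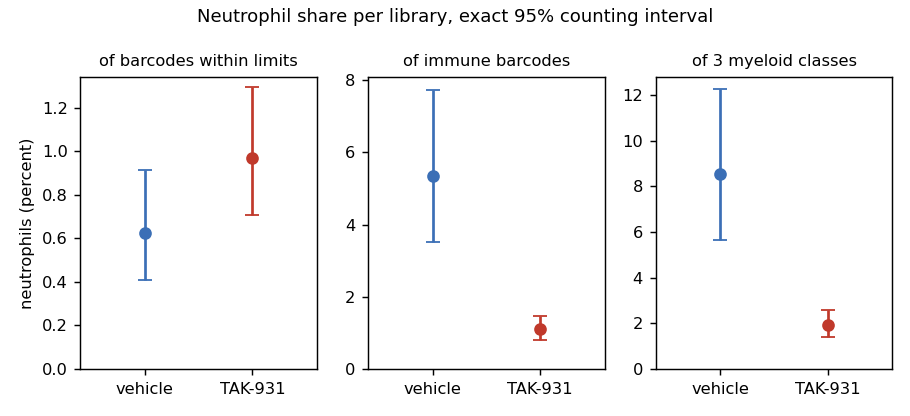
Neutrophils as a percent of 3 denominators, by library, as a point with its exact 95% counting interval (1 library per group). The intervals overlap over all barcodes within limits (0.625% and 0.971%) and do not overlap over immune barcodes (5.35% and 1.10%) or over the 3 myeloid classes (8.52% and 1.92%).

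Beside the genes that chose them, the 15 genes with the largest CPM ratio over the highest other class, pooled over both libraries and with a UMI in at least 25% of members, were Stfa2l1, Asprv1, Mrgpra2b, Chil1, Cstdc4, Il1f9, Ifit1bl2, Mirt2, Steap4, Hdc, Mmp9, Trem1, Dhrs9, Wfdc21 and Hcar2. Stfa2l1, a stefin-family protease inhibitor, stood at 1382 CPM in 32 of 71 neutrophils against 1.53 CPM in the T class, the next highest. Hdc, which makes histamine, stood at 2066 CPM in 64 of 71 neutrophils against 17.1 CPM in C1q-low monocytes. Trem1, an amplifying receptor of myeloid cells, was at 1277 CPM in 61 members against 27.8 CPM. Hcar2, a receptor for hydroxybutyrate, was at 2439 CPM in 63 members against 68.4 CPM. Levels of several differed between the libraries: Stfa2l1 stood at 450 and 1719 CPM, Cstdc4 at 360 and 1837 CPM, Il1f9 at 234 and 808 CPM and Mmp9 at 594 and 124 CPM. The neutrophil limits chose these barcodes by genes expressed with these, so the ratios are a description.

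Against C1q-low monocytes, 18 of 20 mature neutrophil genes (25 listed) were at least 2-fold higher in the vehicle and 21 of 23 under TAK-931, among 31.8% and 23.8% of all genes measured (at least 2-fold lower were 32.1% and 37.7%). A gene was measured here if either class reached the CPM that 20 UMIs make in the neutrophils, which genes high in neutrophils pass more readily, so these counts are a description. Ccrl2, a receptor that binds chemerin, was at 5204 and 4891 CPM in neutrophils and 230.6 and 270.9 CPM in these monocytes. Of the NADPH oxidase subunits, which make superoxide, Ncf1 was higher in neutrophils and Cybb lower: Ncf1 stood at 216 and 215 CPM against 50.2 and 64.9 CPM in these monocytes, and Cybb at 108 and 195 CPM against 790 and 773 CPM.

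Between the treatments, interferon-stimulated genes were higher in neutrophils under TAK-931. Of 19 such genes with at least 20 UMIs over both libraries (24 listed), 15 were at least 2-fold higher and 0 at least 2-fold lower in TAK-931 neutrophils, and all 19 ratios lay above 0. The minimum is on the sum of 55534 vehicle and 153539 TAK-931 UMIs, so genes nearly absent in the vehicle passed through the TAK-931 library, where they were high, and the count is a description. Over all 1321 genes with that minimum, 14.6% were at least 2-fold higher and 13.1% at least 2-fold lower. The list's median log2 ratio was 1.5 against -0.09 for all genes, and it stayed at 1.5 when the gene without a vehicle UMI was set to a floor of 3 counts. Scaling by the median ratio of well-covered genes moved the median of all genes to 0.20 and the calls from 193 higher and 173 lower to 279 and 99. Calls near 2-fold, above all the lower ones, therefore depend on the scaling. A difference is read against the median of all genes in the same scaling.

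The genes behind the list median act against viruses and in cell-autonomous defence. Rsad2 (viperin, an antiviral enzyme) had 2 UMIs in 2 of 26 vehicle neutrophils and 158 UMIs in 32 of 45 TAK-931 neutrophils, 36.0 and 1029 CPM, a log2 ratio of 4.84 (2.96 to 7.89). Ifit1, which binds viral RNA, had 0 UMIs in the vehicle and 68 in 19 TAK-931 members, so it was at least 8.20-fold higher with 3 counts as the floor of the vehicle sum. Zbp1, a sensor of Z-form nucleic acid, had 1 and 83 UMIs (log2 ratio 4.91, 2.39 to 10.2). Oasl2, of the oligoadenylate synthetase family, had 1 and 76 UMIs (4.78, 2.26 to 10.1), and the immunity-related GTPase Ifi47 had 4 and 108 (3.29, 1.89 to 5.19). For these genes few or no vehicle members had a UMI, whereas 19 to 32 of the 45 TAK-931 members did.

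Among genes of guanylate-binding proteins, which attack vacuoles of microbes, Gbp2b, Gbp2 and Gbp5 were also higher. The rest of that family was not counted. Gbp2b had 2 and 194 UMIs (log2 ratio 5.13, 3.26 to 8.19), in 33 of 45 TAK-931 neutrophils. Gbp2 stood at 126 and 977 CPM (2.95, 1.88 to 4.29) and Gbp5 at 18 and 319 CPM (4.15, 1.6 to 9.48). The related GTPase Igtp had 1 and 50 UMIs (4.18, 1.63 to 9.51). Gbp2b and Igtp were outside the list and were named for being among the 10 largest ratios of all eligible genes, where 7 of the other 8 were Ifit1, Zbp1, Rsad2, Oasl2, Ifi47, Gbp2 and Psmb9. The remaining one was Hgsnat, a lysosomal acetyltransferase, with 3 and 59 UMIs.

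Some interferon-stimulated genes were already well expressed in the vehicle. Isg15, a ubiquitin-like modifier, stood at 936 CPM (interval 699 to 1228) in vehicle and 2644 CPM (2393 to 2914) in TAK-931 neutrophils, a log2 ratio of 1.5 (1.08 to 1.94). Ifitm3, which blocks entry of viruses, stood at 1314 and 3491 CPM (1.41, 1.05 to 1.78), with 53.4% of the vehicle UMIs in 1 member. Irf1, a transcription factor induced by interferon gamma, stood at 432 and 1003 CPM (1.21, 0.59 to 1.90). The smallest ratios of the list were those of Bst2 (0.21, -1.30 to 2.01) and Irf7 (0.31, -0.57 to 1.28), whose intervals include 0.

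The list's difference was larger without the deep members. In the 23 vehicle and 40 TAK-931 neutrophils of at most 1000 genes, 17 of 18 interferon-stimulated genes were at least 2-fold higher and the median was 3.19 on the log2 scale, or 2.58 with genes at 0 set to the floor. Over all genes with the minimum there, 16.9% were at least 2-fold higher and 14.2% lower. Without the 4 members with 3 or more UMIs of the 7 monocyte genes the median was 2.78.

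Per member, thinned to 1000 UMIs each so that depth was equal, the list gave 0 to 13 UMIs in the vehicle with a median of 3, and 0 to 70 UMIs with a median of 11 under TAK-931. The ranges overlapped, but the lower quartile of TAK-931 members (5) lay above the vehicle median. Of the vehicle members 5 of 26 had no UMI of the list, and of the TAK-931 members 1 of 45. C1q-low monocytes had medians of 4 and 7, C1q-rich barcodes 2 and 4, and T barcodes 1 and 1. The list medians between the libraries were 0.65 in C1q-low monocytes (all genes 0.15), 0.72 in C1q-rich barcodes (all genes 0.01) and 0.12 in T barcodes (all genes 0.05). These medians cover all 24 genes, against the 19 counted in neutrophils. At least 2-fold higher were 9 of 24 genes of the list in C1q-low monocytes (37.5%, against 16.9% of all genes there), with 1 lower, and 8 of 24 in C1q-rich barcodes (33.3%, against 16.2%), with 0 lower. In T barcodes 4 of 24 were higher (16.7%, against 15.8%) and 1 lower. In the vehicle T class, markers of fibroblasts and mural cells summed to 13917 CPM, against 3562 CPM for T cell markers. Only 5 of 62 barcodes had 3 or more UMIs of the former. Summed values of that class thus include RNA of other cell types. The difference between classes was not tested.

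**Figure D3:**
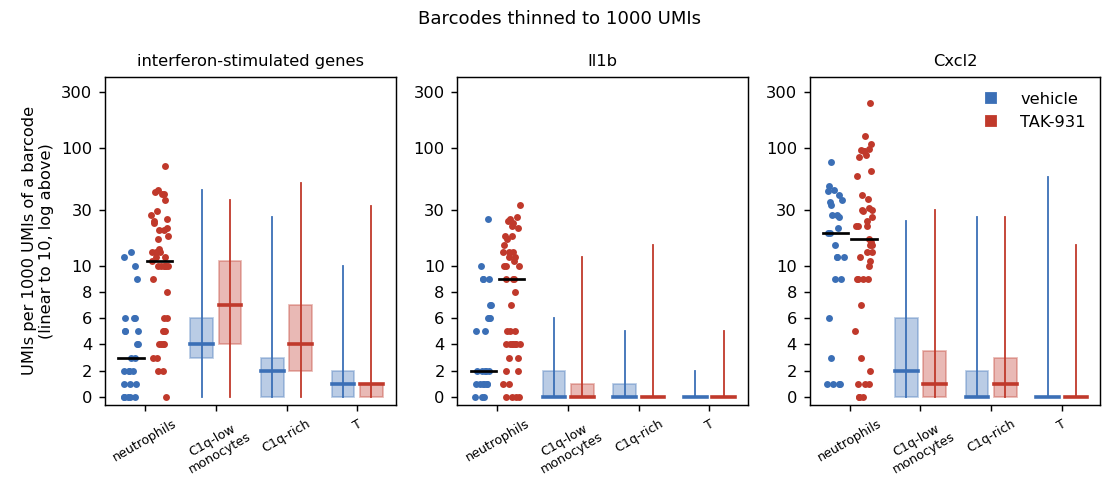
UMIs of the interferon-stimulated list, Il1b and Cxcl2 in barcodes thinned to 1000 UMIs (axis linear to 10 and logarithmic above), by class and library. Points are single neutrophils with medians in black, boxes span the quartiles of the other classes with thin lines from lowest to highest; neutrophil medians are 3 and 11 for the list, 2 and 9 for Il1b, and 19 and 17 for Cxcl2.

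Thinned to 1000 UMIs, Rsad2 was found in 3.85% of vehicle neutrophils (exact interval 0.097 to 19.6) and in 44.4% (29.6 to 60.0) of TAK-931 neutrophils. Gbp2 was found in 15.4% (4.36 to 34.9) and 51.1% (35.8 to 66.3). In T barcodes at the same depth Rsad2 had a UMI in 0 and 0.753%, and Gbp2 in 1.61% and 3.58%. Oasl2, Zbp1, Ifi47, Gbp5, Ifit1 and Tap1 had no UMI in 26 vehicle neutrophils at that depth, which allows a share of members with a UMI of up to 11.5% from 3 counts (13.2% by the exact interval), and were found in 17.8% to 37.8% of TAK-931 neutrophils. T barcodes had UMIs of Tap1 in 14.5% and 12.6%.

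**Figure D4:**
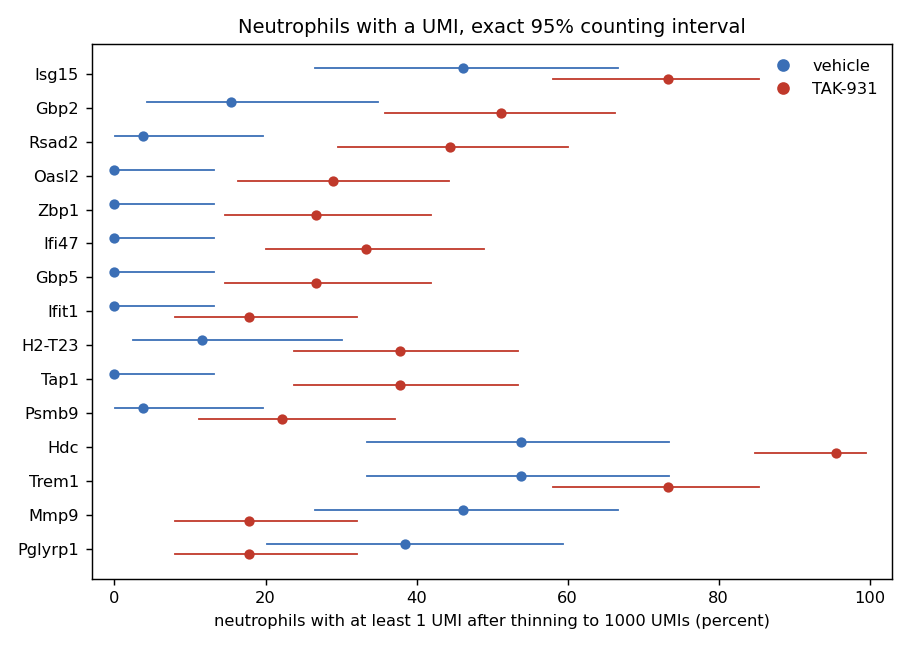
Percent of neutrophils with at least 1 UMI of a gene after each was thinned to 1000 UMIs, with exact 95% counting intervals as lines (26 vehicle and 45 TAK-931 neutrophils). The first 11 genes, of interferon response and class I presentation, and Hdc and Trem1 are at larger shares under TAK-931, Mmp9 and Pglyrp1 at smaller ones.

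Since these genes were higher together, the 250 bases before their transcription starts were searched for the core of the interferon-stimulated response element, GAAANNGAA, on both strands (RefSeq, GRCm38.p6, the same coordinates as mm10). It occurred in 10 of 20 matched genes of the list (24 listed) and in 7.16% of the promoters of 27025 genes. Among matched genes of the other lists it occurred in 2 of 10 for class I presentation, 4 of 16 for cytokines and chemokines and 0 of 20 for mature neutrophil genes. The STAT site TTCNNNGAA, which reads the same on both strands, occurred in 5 of 20 interferon-stimulated genes, 4 of 20 mature neutrophil genes, 1 of 10 class I genes and 0 of 16 cytokine genes, and in 7.18% of all. These promoters are shown because their genes carry the difference at different vehicle levels, Ifit1 and Rsad2 from near 0 and Isg15 and Gbp2 from a measurable level; capitals mark the GAAANNGAA core or its complement on the gene's strand, 5′ to 3′, and overlapping matches run together. A match describes the letters in this window and is no evidence of binding.
Ifit1, chr19:34640639-34640888, plus strand: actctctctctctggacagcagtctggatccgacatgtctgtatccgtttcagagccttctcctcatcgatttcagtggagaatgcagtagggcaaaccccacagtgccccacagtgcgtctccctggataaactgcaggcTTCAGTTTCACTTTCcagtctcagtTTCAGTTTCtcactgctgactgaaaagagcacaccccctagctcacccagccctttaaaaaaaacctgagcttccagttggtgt
Rsad2, chr12:26456453-26456702, minus strand: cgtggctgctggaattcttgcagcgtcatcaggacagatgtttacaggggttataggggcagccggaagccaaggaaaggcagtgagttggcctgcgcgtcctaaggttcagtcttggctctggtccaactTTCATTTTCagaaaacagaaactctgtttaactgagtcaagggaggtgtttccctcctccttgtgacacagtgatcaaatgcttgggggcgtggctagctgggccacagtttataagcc
Isg15, chr4:156200819-156201068, minus strand: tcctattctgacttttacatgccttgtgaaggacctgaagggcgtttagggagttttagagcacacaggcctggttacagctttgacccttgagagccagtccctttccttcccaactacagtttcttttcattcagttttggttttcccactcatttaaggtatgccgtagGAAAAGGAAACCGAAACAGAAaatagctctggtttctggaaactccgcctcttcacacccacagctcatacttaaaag
Gbp2, chr3:142620413-142620662, plus strand: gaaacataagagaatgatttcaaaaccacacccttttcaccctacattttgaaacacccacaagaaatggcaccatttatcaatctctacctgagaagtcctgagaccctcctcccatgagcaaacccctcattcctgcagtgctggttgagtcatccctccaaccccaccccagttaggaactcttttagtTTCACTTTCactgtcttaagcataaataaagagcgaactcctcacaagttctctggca
Ifit1 and Isg15 each hold 3 overlapping or nearby matches, the nearest starting 84 and 66 bases before the start, and Rsad2 and Gbp2 each hold 1, at 119 and 58 bases. Oasl2 and Irf7, also of the list, hold 0 matches in this window.

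Genes of MHC class I presentation were also higher in TAK-931 neutrophils. Of 11 genes with enough UMIs (12 listed), 9 were at least 2-fold higher (81.8%, against 14.6% of all genes) and 0 lower (against 13.1%). The median log2 ratio was 1.94, or 1.41 with genes at 0 set to the floor. As for the interferon-stimulated list, the minimum is on the sum of both libraries. Genes nearly absent in the vehicle, such as Tap2 and H2-Q6, therefore passed through the TAK-931 library, where they were high. The counts for this list and for the lists below are descriptions. B2m, the light chain of class I molecules, stood at 2107 CPM in vehicle and 4689 CPM in TAK-931 neutrophils (1.15, 0.87 to 1.45). The heavy chain H2-D1 stood at 2341 and 4533 CPM (0.95, 0.68 to 1.23) and H2-K1 at 918 and 1622 CPM (0.82, 0.38 to 1.28). Tap1, a subunit of the peptide transporter, had 3 and 56 UMIs (2.76, 1.13 to 5.08), and Tap2, its partner, 0 and 22 UMIs, at least 2.65-fold higher. Psmb9, an immunoproteasome subunit, had 3 and 62 UMIs (2.90, 1.29 to 5.22). H2-Q6 and H2-Q7 had 0 and 33 and 4 and 45 UMIs, and reads of these near-identical genes may be split between them. Over all 12 listed genes, medians of C1q-low monocytes and C1q-rich barcodes were 1.01 and 1.11, and that of T barcodes 1.05. The list medians were thus above 0 in all 4 immune classes compared.

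Among cytokines and chemokines, 5 of 15 genes were at least 2-fold higher in TAK-931 neutrophils and 1 lower (33.3% and 6.67%, against 14.6% and 13.1% of all genes), with a median log2 ratio of 0.79. Of these calls, Ccl5 among the higher and Cxcl9, the lower one, came mostly or wholly from 1 member. Il1b, the inflammatory cytokine, stood at 3115 CPM (2668 to 3616) in vehicle and 9568 CPM (9085 to 10070) in TAK-931 neutrophils, a log2 ratio of 1.62 (1.39 to 1.85). It had from 0 UMIs through a median of 5.5 to 37 per vehicle member, and from 1 through 22 to 128 per TAK-931 member. At equal depth its median was 2 UMIs per 1000 in the vehicle and 9 under TAK-931, so the difference was spread over many members although the ranges overlapped. In C1q-low monocytes Il1b was lower under TAK-931, 847 and 553 CPM (-0.61, -0.73 to -0.50), and in C1q-rich barcodes 451 and 294 CPM (-0.62, -0.71 to -0.52). Whether the classes differ in their response was not tested.

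Cxcl2, the CXCR2 ligand, had the most UMIs of these genes, and its difference was uneven over the members. It stood at 18709 CPM (17589 to 19882) in vehicle and 41507 CPM (40495 to 42539) in TAK-931 neutrophils, a log2 ratio of 1.15 (1.05 to 1.25). At equal depth the medians were 19 and 17 UMIs per 1000, with the highest members at 76 and 239, and 9 of 45 TAK-931 members lay above the highest vehicle member. The 3 highest TAK-931 members held 2530 of the 6373 Cxcl2 UMIs (39.7%), and the 3 highest vehicle members held 28.2%. The mean of the members' own CPM gave a log2 ratio of 0.67, and members of at most 1000 genes gave 0.79 (0.69 to 0.89). Across the 45 TAK-931 members, cells of 1 library at equal depth, Il1b and Cxcl2 had a Spearman rho of 0.65 and a Pearson r of 0.56. Across the 26 vehicle members these were 0.28 and 0.01, at a median of 2 Il1b UMIs, and the difference was not tested.

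Neutrophils held the highest Cxcl2 and Il1b levels of the 5 classes in each library but a small part of the transcripts. Cxcl2 stood at 3860 and 2785 CPM in C1q-low monocytes and at 1547 and 1926 CPM in C1q-rich barcodes. Of all Cxcl2 UMIs of a library, neutrophils held 9.60% in the vehicle and 6.15% under TAK-931, and C1q-rich barcodes 29.7% and 48.6%. Of all Il1b UMIs they held 6.14% and 7.72%. Csf3, which encodes G-CSF, had 0 UMIs in vehicle and 14 in TAK-931 neutrophils, of 26 and 337 UMIs in the libraries.

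Other secreted factors were less certain. Il1a had 7 UMIs in 2 vehicle members and 95 UMIs in 15 TAK-931 members (log2 ratio 2.30, 1.20 to 3.65), and 3 members held 68.4% of the latter. At equal depth Il1a was found in 7.69% and 22.2% of members, a difference of 14.5 points (-4.56 to 29.6) that includes 0. Osm, an IL-6 family cytokine, had 10 and 78 UMIs (1.5, 0.54 to 2.61). The chemokines Ccl3 and Ccl4 stood at 2881 and 4969 CPM (0.79, 0.54 to 1.04) and at 3385 and 4689 CPM (0.47, 0.24 to 0.71). Il1rn, the IL-1 receptor antagonist, was at 1999 and 1544 CPM (-0.37, -0.70 to -0.03). Ccl5 had 0 and 46 UMIs, 87.0% of them in 1 member, and Cxcl9 had 38 vehicle UMIs that all came from 1 member, so neither describes the group.

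Among 16 genes linked to tumour-associated neutrophils, 4 were at least 2-fold higher (25%, against 14.6% of all genes) and 0 lower (against 13.1%), with a median of 0.33. Ptgs2, the inducible cyclooxygenase, stood at 414 and 1941 CPM (log2 ratio 2.23, 1.62 to 2.91), with UMIs in 7 of 26 and 25 of 45 members. At equal depth it was found in 26.9% and 40% of members, a difference of 13.1 points (-10.1 to 32.7) that includes 0. Cd274, which encodes PD-L1, stood at 288 and 970 CPM (1.75, 1.01 to 2.60), with UMIs in 9 of 26 and 30 of 45 members, or at equal depth in 23.1% and 51.1%, a difference of 28.0 points (4.39 to 46.5). Its ratios in C1q-low monocytes and C1q-rich barcodes were 2.09 and 1.84. Siglecf had 1 and 0 UMIs and Nos2 had no UMI.

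By 2-fold calls, genes of the mature neutrophil did not stand apart as a group, but their summed level was higher under TAK-931. Values are given for single members. Of 24 counted, 5 were at least 2-fold higher (20.8%) and 3 lower (12.5%), near the 14.6% and 13.1% of all genes, and the median was 0.24. Hdc stood at 1224 and 2371 CPM (log2 ratio 0.95, 0.58 to 1.35) with UMIs in 19 of 26 and 45 of 45 members, and Trem1 at 684 and 1491 CPM (1.12, 0.62 to 1.66). Asprv1, an aspartic protease, stood at 792 and 1602 CPM (1.02, 0.55 to 1.51), and Stfa2l1 at 450 and 1719 CPM (1.93, 1.34 to 2.59), with 52.0% of its vehicle UMIs in 1 member. Acod1, which makes itaconate, stood at 2143 and 3563 CPM (0.73, 0.44 to 1.03). Stfa2 had 0 and 52 UMIs, 75% of them in 1 member, and stefin genes are near-identical, so its value is uncertain.

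Lower under TAK-931 were Mmp9, Lrg1 and Pglyrp1. Mmp9, the gelatinase of tertiary granules, had 33 UMIs in 16 of 26 vehicle members and 19 UMIs in 13 of 45 TAK-931 members, 594 and 124 CPM (-2.26, -3.16 to -1.41). Lrg1, a granule glycoprotein, stood at 648 and 221 CPM (-1.55, -2.27 to -0.83), and Pglyrp1, which binds bacterial cell walls, at 540 and 234 CPM (-1.20, -1.94 to -0.45). At equal depth Mmp9 was found in 46.2% (26.6 to 66.6) of vehicle and 17.8% (8.0 to 32.1) of TAK-931 neutrophils. These values were as low without the deep members, at -2.33 for Mmp9 and -1.34 for Pglyrp1. Lcn2, the iron-binding lipocalin of secondary granules, stood at 684 and 515 CPM (-0.41, -0.99 to 0.19), an interval that includes 0.

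**Figure D5:**
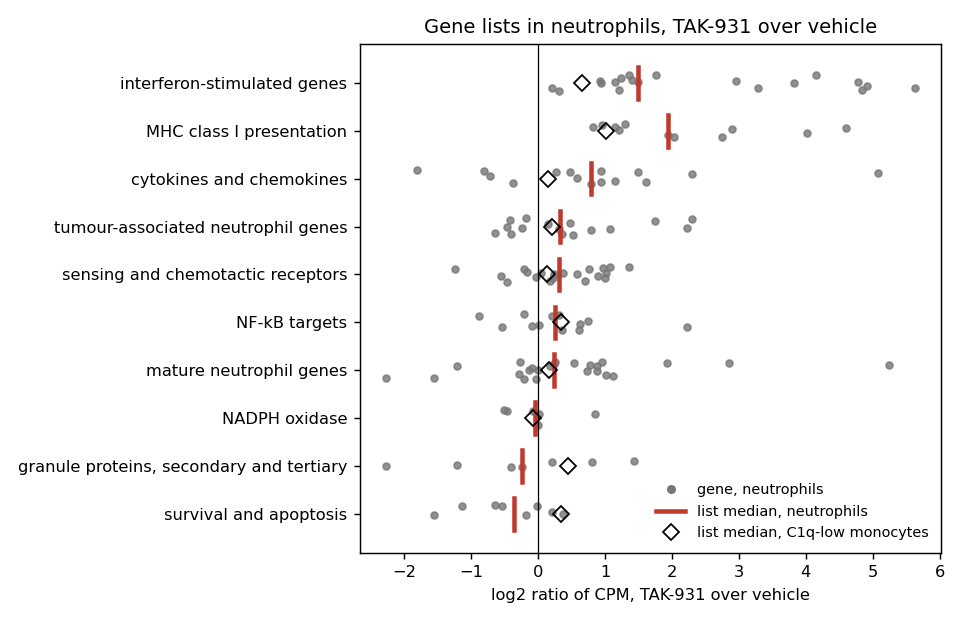
Log2 ratio of CPM, TAK-931 over vehicle, for 10 gene lists in neutrophils. Grey points are genes with at least 20 UMIs over both libraries, and red bars the list medians (1.5 for interferon-stimulated genes, 1.94 for class I presentation, -0.36 for survival and apoptosis). Open diamonds are medians of the same lists in C1q-low monocytes, where more of the listed genes reach that minimum.

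The list medians of receptors, oxidase, granule, NF-kB and survival genes lay between -0.36 and 0.31. Of 20 sensing and chemotactic receptors, 4 were at least 2-fold higher (20%, against 14.6% of all genes) and 1 lower (5%, against 13.1%), with a median of 0.31, and the lower one, the inhibitory receptor Fcgr2b, had 91.7% of its vehicle UMIs in 1 member. Cxcr4, which retains neutrophils in marrow, was at 882 and 905 CPM (0.04, -0.44 to 0.54). Ptafr, the receptor of platelet-activating factor, stood at 1170 and 1752 CPM (0.58, 0.19 to 1.00). The 6 oxidase genes had a median of -0.04 and 0 passed 2-fold in either direction. Of 7 secondary and tertiary granule genes 1 was at least 2-fold higher (14.3%) and 2 lower (28.6%), with a median of -0.23, and the higher one was Lyz2 (576 and 1557 CPM), a gene that monocytes express at 6249 and 7812 CPM. Of 12 NF-kB targets 1 was at least 2-fold higher (8.33%) and 0 lower, with a median of 0.26, the one being Ptgs2.

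Of 8 survival and apoptosis genes 2 were at least 2-fold lower (25%, against 13.1% of all genes) and 0 higher (against 14.6%), with a median of -0.36. Both were Bcl2a1 genes, near-identical copies whose reads may be split: Bcl2a1b stood at 1224 and 560 CPM (-1.13, -1.60 to -0.65) and Bcl2a1a had 18 and 17 UMIs (-1.55, -2.60 to -0.51). Mcl1, on which neutrophil survival depends, stood at 2665 and 2644 CPM (-0.01, -0.29 to 0.27). Cell cycle genes and targets of CDC7 were nearly absent: Cdc7 had no UMI, Mki67 had 5 and 3 UMIs, and only Pcna of 14 genes reached 20 UMIs (5 and 18).

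The 10 lowest ratios among eligible genes were those of Lst1, Hmgb2, Hspa5, Zfp36l2, Tax1bp1, Bcl2a1b, Cst3, Apoe, Fcer1g and Actb. Lst1, a myeloid membrane adaptor, stood at 2395 and 899 CPM (-1.41, -1.77 to -1.06), with UMIs in 25 of 26 and 40 of 45 members. Hmgb2, a chromatin protein, stood at 1332 and 528 CPM (-1.34, -1.81 to -0.86), and Hspa5, the chaperone of the endoplasmic reticulum, at 1855 and 756 CPM (-1.30, -1.69 to -0.90). Fcer1g, the signalling chain of Fc receptors, stood at 3349 and 1693 CPM (-0.98, -1.26 to -0.70), and Actb, cytoplasmic actin, at 10408 and 5757 CPM (-0.85, -1.01 to -0.70). Apoe, a macrophage gene, had 84.8% of its vehicle UMIs in 1 member. Its ratio reversed to 1.41 without the members with 3 or more UMIs of the 7 monocyte genes. Mitochondrial shares were also higher in TAK-931 neutrophils (above), and among the 23 vehicle and 34 TAK-931 members under 10% mitochondrial UMIs the list medians were 1.63 for interferon-stimulated genes, 1.67 for class I presentation and 0.99 for cytokines and chemokines.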

How the data were processed

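Counts were deposited by the authors as 1 table of UMI counts per library (32285 genes), made with Cell Ranger 6.0.0 and mm10 according to the submitters' processing notes, although the study's methods name a human build. The tables included barcodes of 500 or fewer genes, and doublets were neither called nor removed here. Raw counts of the members were summed per library and divided by the sum (CPM). Ratios were taken for genes with at least 20 UMIs over both sums, with 0.5 added to both counts where one was 0, and called at 2-fold. Each group has 1 library, so no p-value was computed. Intervals (95%) are exact Poisson, Clopper-Pearson or Newcombe intervals, and the floor for a sum of 0 was 3 counts. For shares per gene, each barcode was thinned to 1000 UMIs.

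Classes were set by marker limits, not by clustering. Members, gene lists and limits were chosen with earlier results of these data known. The genes singled out were those of the lists, the 15 of largest ratio over the next class, and in each direction the 10 most different between the libraries with at least 50 UMIs where higher, a UMI in at least 25% of members there and a CPM no lower than in all barcodes of that library (mitochondrial, ribosomal, haemoglobin, immunoglobulin and predicted genes left out). The steps were tested on simulated data. Python 3.11.15 was used with numpy 2.4.6, scipy 1.17.1, pandas 2.3.3 and matplotlib 3.10.9.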

Additional observations from a re-analysis of the deposited data

Results flagged for a closer look

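Of 141 listed or named genes with at least 20 UMIs in neutrophils, 16 had log2 ratios of TAK-931 over vehicle of opposite sign in neutrophils and in C1q-low monocytes, with both counting intervals away from 0. In 6 of them both ratios were at least 0.5 in size, a limit chosen after the values were seen. The same count was not made over all genes, and some of the 141 were named for their neutrophil ratios, so both counts are descriptions. With 1 library per group, the difference between the classes was not tested. Il1b was 1.62 in neutrophils and -0.61 in monocytes, and Osm was 1.5 and -0.59. Isg20, an exonuclease induced by interferon, was 3.82 and -0.52, on 1 vehicle UMI in neutrophils. Spp1 (osteopontin) was 1.07 and -1.4. Pglyrp1 was -1.2 and 1.48. Cxcl9 was -1.81 and 0.95, and its 38 vehicle neutrophil UMIs all lay in 1 member.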

How the results depend on the processing

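No paired analysis was possible because each group has 1 library. The medians of interferon-stimulated genes, class I presentation and cytokines stayed above 0 in all 18, 19 and 19 settings tried (0.98 to 3.19, 0.83 to 2.23 and 0.31 to 2.8), with no interferon-stimulated median over 2000 genes, where too few of its genes were measured. The cause of the shifts below was not tested, except that fewer members or genes entered where a limit was stricter. With over 1000 genes (3 and 5 members) the immune share difference was -0.605 points. There 97 of 504 genes were higher and 68 lower, against 193 and 173 of 1321 in the main setting. Medians were 1.32 for cytokines and 1.13 for class I, and receptors (-0.037) and Trem1 (-0.0058) reversed. With over 2000 genes (1 and 4 members) the share difference was -0.226 points, and 85 of 432 genes were higher and 74 lower. Medians were 1.07 for mature genes, 2.8 for cytokines and 0.83 for class I, and Ifi47 (-0.0147) and Asprv1 (-0.26) reversed. With S100a8 and S100a9 at 10 UMIs the cytokine median was 0.31 and Ccl4 reversed to -0.0856, and with second markers at 4 UMIs it was 1.26. The interferon-stimulated median and the reversed ratio of Apoe were 2.66 and 1.45 with S100a8 and S100a9 at 1% of UMIs, 2.53 and 2.55 without G0s2, 2.78 and 1.41 without members of 3 or more monocyte UMIs, 3.19 and 0.12 without members over 1000 genes (chosen after seeing the data), and 2.18 and 0.54 without the top member of each gene. It was 2.28 from the mean of member CPM. Median-ratio scaling gave 99 lower genes. A minimum of 50 UMIs gave 87 higher and 53 lower of 609 genes. A minimum of 1 UMI gave 1071 and 2683 of 8335 and reversed the tumour-associated median to -0.27.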
